A study of Mus musculus with 12 samples.

Results

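Rab proteins are small GTPases that give each membrane compartment of a cell its identity. A guanine nucleotide exchange factor loads a Rab with GTP, the GTP-bound Rab recruits effectors that form, move, tether or fuse vesicles, and a GTPase activating protein switches it off. GDP dissociation inhibitors then lift the prenylated protein from the membrane for reuse. In macrophages this cycle carries phagosomes and endosomes through early, recycling and late stages to the lysosome, and it delivers receptors and cytokines to the surface.

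The Rab genes described here are the rows of the deposited count data whose symbol is Rab followed by a number and, where present, a letter for the paralog. This rule took 52 of 12960 genes and used no measured value. The libraries came from bone marrow-derived macrophages (BMDMs) of wild-type (WT) mice and of mice without the β1 subunit of AMP-activated protein kinase (AMPKβ1-/-, KO), grown with L929 medium as a source of M-CSF. Cells of each genotype were left for 6 h with vehicle, which was DMSO at 0.1%, or with the AMPK activator PF-06409577 (PF) at 10 μM, which acts on complexes that hold β1. There were thus 4 groups of 3 libraries, and the labels name no other allele or agent in any of them. The labels do not say whether the 3 libraries of a group came from separate animals or cultures, so p values measure the spread between these libraries only. The labels name a knockout mouse, with no promoter or Cre, and the age and sex of the marrow donors were not in the labels. RNA was measured in bulk, where fewer cells and less RNA per cell cannot be told apart.

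The libraries held 8935609 to 14358180 counts on genes, and Rab genes took 0.386% to 0.461% of them. Levels are CPM, the counts of a gene scaled to a common library total and corrected by TMM factors. Prkab1, which encodes the deleted subunit, was at 43.4, 44.2 and 45.3 CPM in WT vehicle libraries and at 8.39, 7.70 and 6.05 CPM in KO vehicle libraries (log2 fold change −2.58, SE 0.12, adjusted p = 8.86e-09). With PF it was at 41.9, 37.3 and 37.7 CPM in WT and at 9.41, 9.42 and 7.91 CPM in KO, so the genotypes did not overlap. The sources used here do not say which exons the deletion takes. All 8 macrophage markers were tested and summed to between 25190 and 29680 CPM. The count data held 4 of 5 dendritic cell and 5 of 8 granulocyte markers, and 0 of these passed the filter on low counts. The 6 lymphoid markers had no row in the count data. Fibroblast markers summed to at most 2.12 CPM except in 1 KO vehicle library at 8.66 CPM, and the 1 measured mast cell marker was at 0.424 to 4.02 CPM and highest with PF in WT. The part of these low signals in the Rab values was not tested.

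Of the 52 Rab genes, 44 passed the filter on low counts. The other 8 were Rab15, Rab26, Rab33a, Rab37, Rab38, Rab3b, Rab40b and Rab42, with at most 14 counts in any library. By role, the tested genes were 12 of 13 of the ER and Golgi, 8 of 8 of the early endosome, 11 of 12 of recycling and surface delivery, 5 of 7 of the late endosome and lysosome, 4 of 7 of regulated secretion and 4 of 5 of the cilium and other functions.

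Per kilobase of the longest annotated transcript, the highest mean levels over the 4 groups were those of Rab5c, of early endosome fusion, at 215.6 CPM per kb and of Rab7, which directs late endosomes to the lysosome, at 203.6 CPM per kb. Rab1b, of ER to Golgi traffic, followed at 163.0 CPM per kb and Rab31, of the trans-Golgi and endosomes, at 108.7 CPM per kb. The order depended on the transcript model, since with the median transcript length Rab1b was the first at 411.9 CPM per kb and Rab7b moved from rank 8 to rank 3. Rab39, a Rab of phagosomes and autophagy in macrophages, was among the low genes at 1.00 CPM per kb.

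The first question was how loss of β1 changed Rab transcripts without the activator. In vehicle-treated cells 15 Rab genes were higher and 12 lower in KO than in WT at an adjusted p below 0.05 (edgeR quasi-likelihood test, Benjamini-Hochberg over all 10822 tested genes). Over all tested genes 29.7% were higher and 30% lower, so the Rab share of calls was close to that of the transcriptome. The median log2 fold change was −0.0027 over the Rab genes and −0.026 over all genes. With a fold threshold added, 0.8 in log2 in either direction (DEG), 7 Rab genes and 17.8% of all genes were called. The higher Rab DEGs were Rab39, Rab8b, Rab5a, Rab18, Rab33b and Rab6a, and the lower one was Rab44.

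The direction of these calls followed base composition. The 15 higher genes had transcripts of 40.6% to 47.7% GC and the 12 lower genes of 49.4% to 59.5%, with no overlap. Across the 44 Rab genes Spearman's rho between GC content and log2 fold change was −0.88, against −0.77 across the 10785 tested genes with a known GC content. Genes of one library set share its composition and are not independent, so these are descriptions. The libraries themselves differed in the same way. A slope on GC was taken of each gene's log2 CPM minus its mean over the 12 libraries, so it shows differences between libraries only. Per 10 points of GC this relative slope was 0.37 to 0.74 in WT vehicle libraries and −0.37 to −0.10 in KO vehicle libraries. In WT libraries with PF the slope was −0.054 to 0.38, and in KO libraries with PF −0.53 to −0.34. Group and GC slope moved together, so their parts cannot be told apart from the group comparison alone. A second fit therefore removed the trend in GC content and transcript length from each library, and its values are given beside the genes that the results turn on. In that fit 5 Rab genes were higher and 8 lower in KO with vehicle, with 33.3% of all genes called, and 8 of the 27 first calls remained in the same direction.

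**Figure D1:**
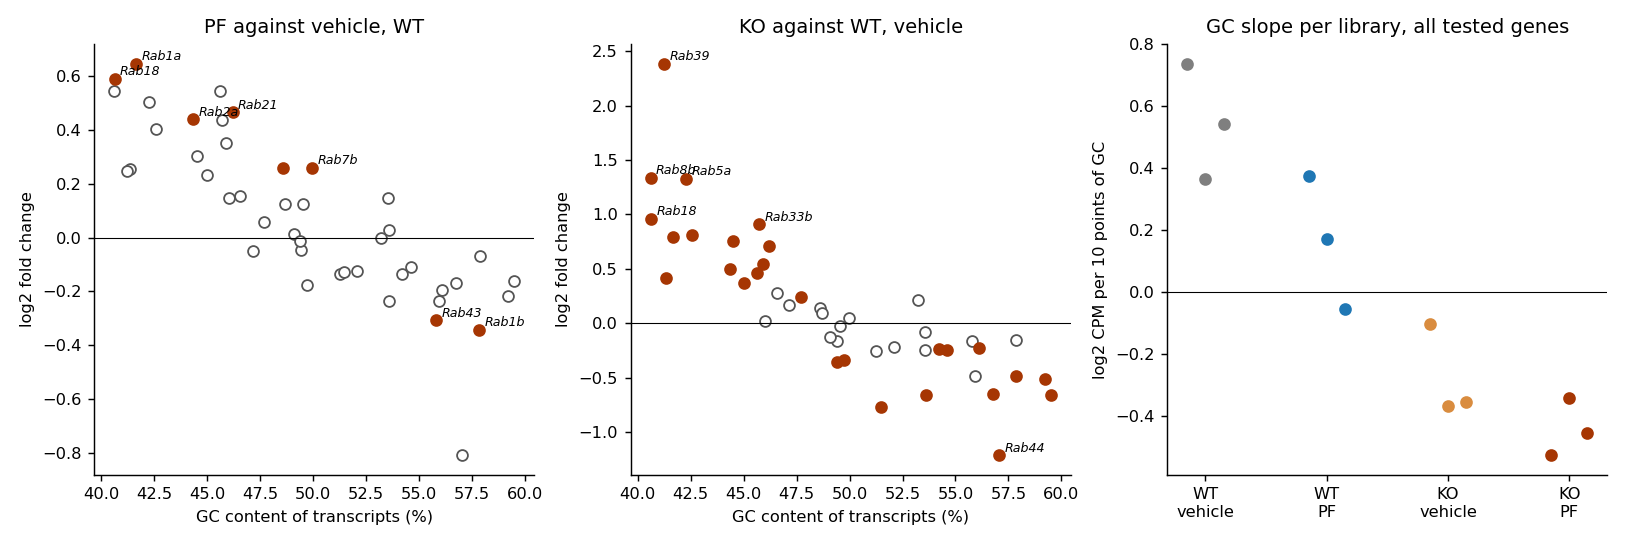
Log2 fold change of the 44 tested Rab genes against the GC content (%) of their transcripts for PF against vehicle in WT (left) and KO against WT with vehicle (middle), with filled points for an adjusted p below 0.05. The right plot gives the slope on GC over all tested genes in each library, for log2 CPM minus each gene's mean over all libraries. The fold changes fall with GC content in both comparisons (rho −0.87 and −0.88), and the library slopes run from 0.74 in a WT vehicle library to −0.53 in a KO library with PF.

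Some paralogs of a Rab differ in GC content while they encode nearly the same GTPase. The coding sequence around the phosphate-binding loop, which grips the nucleotide in all Rabs, is printed for 3 paralog pairs in which the window itself shows this. Each window is 120 coding bases of exons, read 5′ to 3′ on the coding strand from the transcript models of GENCODE M21 (GRCm38), and capitals mark the 24 bases of the loop.
Rab1a (chromosome 11): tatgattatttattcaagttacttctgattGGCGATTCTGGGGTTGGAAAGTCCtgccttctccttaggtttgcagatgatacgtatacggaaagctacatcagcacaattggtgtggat
Rab1b (chromosome 19): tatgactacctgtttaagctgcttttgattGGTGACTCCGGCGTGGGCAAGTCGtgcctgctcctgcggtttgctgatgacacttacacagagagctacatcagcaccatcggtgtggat
Rab5a (chromosome 17): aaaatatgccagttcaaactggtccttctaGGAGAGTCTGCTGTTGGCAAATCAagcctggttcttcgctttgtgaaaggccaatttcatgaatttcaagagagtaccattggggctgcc
Rab5c (chromosome 11): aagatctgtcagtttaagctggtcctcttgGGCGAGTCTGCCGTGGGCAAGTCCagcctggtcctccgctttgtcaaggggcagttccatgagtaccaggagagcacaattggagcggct
Rab11a (chromosome 9): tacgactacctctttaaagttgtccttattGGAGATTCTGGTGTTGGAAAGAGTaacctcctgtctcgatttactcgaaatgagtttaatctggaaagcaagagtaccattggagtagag
Rab11b (chromosome 17): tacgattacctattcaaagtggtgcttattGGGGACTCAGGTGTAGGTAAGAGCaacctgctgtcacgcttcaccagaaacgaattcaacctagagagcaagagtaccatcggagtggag

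The Rab1a and Rab1b windows differed at 26 bases, 22 of them at the third position of a codon, and at 0 of the 40 encoded residues. At 18 of these bases Rab1b alone had G or C, and at 5 Rab1a alone did. The Rab5a and Rab5c windows differed at 29 bases and 1 residue, with G or C in Rab5c alone at 20 bases. The Rab11a and Rab11b windows differed at 25 bases and 0 residues, with G or C in Rab11b alone at 14. GC content at the third position of all codons was 46.1% in Rab1a and 68.8% in Rab1b, 31.5% in Rab5a and 63.8% in Rab5c, and 39.6% in Rab11a and 67.6% in Rab11b. The windows of Rab8a and Rab8b, which are not printed, had equal GC content at 53.3% each, with 16 differing bases and 2 differing residues. At the third position of all codons Rab8a had 69.7% and Rab8b 51.9%. Counts of such pairs rest on reads that fall on differing bases, and how reads were shared between paralogs was left to Salmon.

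Rab5a, the least abundant of the 3 Rab5 paralogs of early endosome fusion, was higher in KO BMDMs under every alternative. The gene lies on chromosome 17 (GRCm38, 53479234 to 53507680). With vehicle it was at 10.4, 18.7 and 16.7 CPM in WT and at 29.0, 42.5 and 43.9 CPM in KO. The highest WT library was below the lowest KO library, and the fold was 2.51 (log2 fold change 1.33, SE 0.23, adjusted p = 0.00039). With the GC and length trend removed the log2 fold change was 0.48 (adjusted p = 0.00339). With PF it was at 15.95, 21.53 and 27.54 CPM in WT and at 54.7, 43.9 and 49.0 CPM in KO, again without overlap (log2 fold change 1.18, SE 0.22, adjusted p = 0.000907, and 0.57 with the trend removed). Its paralog Rab5c was lower in KO with vehicle (log2 fold change −0.25) and with PF (−0.21), and both values turned positive with the trend removed (0.11 and 0.037). Rab5b had no call in any comparison. Rab5a counts were 2.05% ± 0.63 (SD, n = 3) of the Rab5 counts in WT vehicle libraries and 5.68% ± 1.11 in KO vehicle libraries.

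Rab39 had the largest Rab fold change between genotypes. It was at 0.642, 1.29 and 0.796 CPM in WT vehicle libraries and at 4.01, 4.50 and 6.26 CPM in KO vehicle libraries. The groups were far apart at a low level (log2 fold change 2.39, SE 0.31, adjusted p = 4.8e-05). With PF it was at 0.686, 1.03 and 1.54 CPM in WT and at 5.40, 4.87 and 4.74 CPM in KO (log2 fold change 2.18, SE 0.29, adjusted p = 3.91e-05). With the trend removed the log2 fold changes were 1.40 and 1.38, and both calls remained under every alternative that tested the gene. The filter of at least 10 counts in every library left Rab39 out, since library 1 of WT vehicle held 6 counts.

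Of the Golgi Rabs, Rab33b, which binds the autophagy protein Atg16L1, was at 7.16, 8.03 and 8.46 CPM in WT and at 15.4, 14.8 and 14.2 CPM in KO with vehicle. The call held under every alternative (log2 fold change 0.91, SE 0.15, adjusted p = 0.000205, and 0.48 with the trend removed). With PF the groups were closer, at 10.4, 8.80 and 12.8 CPM in WT and 14.72, 12.01 and 13.76 CPM in KO, and overlapped. Rab21, which carries integrins into early endosomes, was at 30.4, 42.4 and 41.1 CPM in WT and at 59.0, 63.9 and 63.3 CPM in KO with vehicle. It was higher in KO in both fits (log2 fold change 0.71, SE 0.14, adjusted p = 0.000675, and 0.25 with the trend removed). Rab10, of delivery to the surface, was higher in KO with vehicle (log2 fold change 0.75) and with PF (0.54), and with the trend removed the second call remained (0.18, adjusted p = 0.0293) and the first did not (0.14, adjusted p = 0.106).

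Other rises did not hold without the GC and length trend. Rab8b, of traffic from the trans-Golgi to the surface, was at 55.6, 86.1 and 81.6 CPM in WT and at 146, 209 and 209 CPM in KO with vehicle. The groups did not overlap (log2 fold change 1.33, SE 0.28, adjusted p = 0.00166), but with the trend removed the value was 0.12 (adjusted p = 0.531). Rab18, of the ER and lipid droplets, was at 20.6, 28.9 and 24.7 CPM in WT and at 43.6, 49.3 and 51.8 CPM in KO (log2 fold change 0.96, SE 0.17, adjusted p = 0.000451). With the trend removed it was lower in KO (log2 fold change −0.36, adjusted p = 0.00207). The direction thus depended on the treatment of GC content and transcript length, which that fit removed together. Rab6a, of retrograde Golgi traffic, had a log2 fold change of 0.81, and Rab1a, of ER to Golgi transport, one of 0.80. These became −0.050 and −0.14 with the trend removed. The rises of Rab2a, Rab9, Rab11a, Rab14, Rab23 and Rab32 were between 0.24 and 0.54 in log2, and none held in the second fit, where Rab11a, of the recycling endosome, was lower in KO (−0.56, adjusted p = 0.000173). The calls of Rab9, Rab23 and Rab32 also rested on single libraries. Rab9 was not called after dropping library 1 or 3 of WT vehicle, 2 of WT PF, 2 or 3 of KO vehicle or 2 of KO PF, Rab23 after dropping library 3 of WT vehicle or 2 of KO vehicle, and Rab32 after dropping library 1 or 3 of WT vehicle or 2 or 3 of KO vehicle (adjusted p up to 0.130, 0.111 and 0.0917).

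Among the lower genes, 4 had the same call in both fits with vehicle. Rab3d, of secretory granules, was at 107.4, 98.03 and 94.25 CPM in WT and at 64.4, 64.4 and 60.7 CPM in KO. The libraries within each group were close and the groups did not overlap (log2 fold change −0.66, SE 0.087, adjusted p = 5.52e-05, and −0.45 with the trend removed). Rab40c, which joins a ubiquitin ligase through its SOCS box, was at 97.5, 84.5 and 80.3 CPM in WT and at 58.6, 55.0 and 53.4 CPM in KO. This was a fall to a 0.637 fold of WT (log2 fold change −0.65, SE 0.093, adjusted p = 8.54e-05, and −0.25 with the trend removed). Rab8a, the paralog of Rab8b, was at 198, 179 and 163 CPM in WT and at 133, 140 and 148 CPM in KO (log2 fold change −0.36, SE 0.083, adjusted p = 0.00182, and −0.45 with the trend removed). Rab11b was lower too (log2 fold change −0.34, and −0.52 with the trend removed). With library size alone in place of TMM, Rab8a and Rab11b had adjusted p of 0.0835 and 0.0854 with vehicle.

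The other 8 falls with vehicle did not pass in the second fit. Rab44, a large Rab of granules in immune cells, was at 1.18, 2.12 and 0.995 CPM in WT and at 0.821, 0.522 and 0.530 CPM in KO. These levels were 5 to 23 counts per library, and the call was lost when library 2 of either vehicle group was dropped (log2 fold change −1.21, SE 0.38, adjusted p = 0.0119, and −0.93 with the trend removed, adjusted p = 0.0749). Rab19 was at 5.56, 6.28 and 5.08 CPM in WT and at 2.64, 3.52 and 3.71 CPM in KO (log2 fold change −0.77, SE 0.23, adjusted p = 0.00845, and −0.54 with the trend removed, adjusted p = 0.0550). Rab34, of the Golgi, macropinocytosis and cilium formation, had a log2 fold change of −0.66, and Rab4b, of fast recycling, and Rab1b had −0.51 and −0.49. With the trend removed these 3 values were −0.19, −0.028 and −0.035. Rab5c, Rab20 and Rab35 had values from −0.25 to −0.23, and all 3 turned positive with the trend removed. Rab20 was not called in 9 of the 12 fits that left out a library, those without any of the 6 vehicle libraries, library 2 of WT PF, or library 2 or 3 of KO PF (adjusted p up to 0.101).

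**Figure D2:**
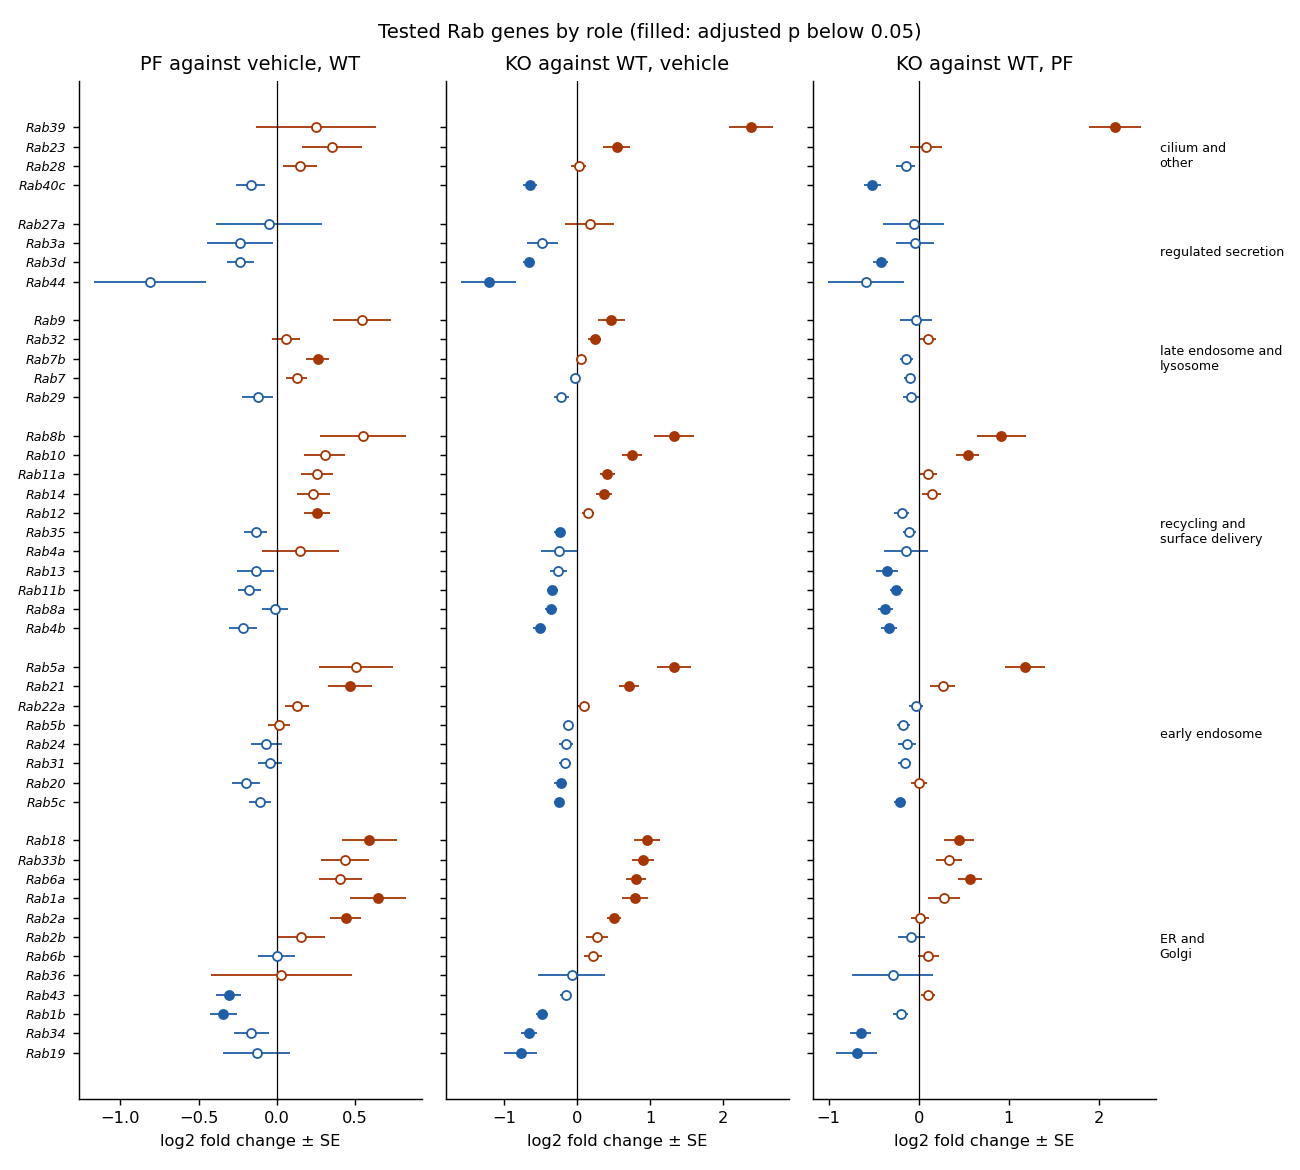
Log2 fold change ± SE of the 44 tested Rab genes, by role, for PF against vehicle in WT, KO against WT with vehicle and KO against WT with PF, with filled points for an adjusted p below 0.05. Most role groups hold both higher and lower genes in KO, and the x axes differ in range. Rab39 is the point farthest to the right in both genotype comparisons, at 2.39 and 2.18.

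By role, the ER and Golgi genes split into 5 higher and 3 lower in KO with vehicle, and the recycling and surface genes into 4 and 4, against 29.7% higher and 30% lower of all tested genes. Of the early endosome genes 2 were higher and 2 lower. Of the late endosome and lysosome genes 2 were higher, Rab9 and Rab32, and 0 lower. Of the secretory genes 0 were higher and 2 lower, Rab3d and Rab44. Of the genes of the cilium and other functions, where Rab39 was placed, 2 were higher, Rab39 and Rab23, and 1 lower, Rab40c. Rab7 and Rab7b of the late endosome had log2 fold changes of −0.025 and 0.050 between genotypes with vehicle and no call in that comparison.

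With PF in both genotypes, 6 Rab genes were higher and 9 lower in KO, against 24.1% and 22.9% of all tested genes. The median was −0.081 over Rab genes and −0.0012 over all genes. There were 3 Rab DEGs, Rab39, Rab5a and Rab8b, against 14.3% of all genes. This comparison shares no library with the vehicle comparison, but both come from one fit with a shared estimate of the spread. In both, the KO libraries had lower GC slopes than the WT libraries. Of the Rab genes 14 were called in both, and the overlap over all genes was not counted. The 1 further call was Rab13, of junction proteins and surface delivery, which was lower (log2 fold change −0.35, adjusted p = 0.0269, and −0.075 with the trend removed). Without the trend 6 were higher and 11 lower, with 37.6% of all genes called, and 8 calls of the first fit remained in the same direction.

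The calls with PF that held under every alternative that tested the gene were those of Rab5a, Rab39 and Rab10, which were higher. Those of Rab3d, Rab8a, Rab34 and Rab40c, which were lower, held as well. Rab39 was not tested with the filter of at least 10 counts in every library. Rab34 was at 39.9, 32.0 and 30.8 CPM in WT with PF and at 20.73, 21.99 and 23.06 CPM in KO with PF, without overlap (log2 fold change −0.64, SE 0.12, adjusted p = 0.000452, and −0.36 with the trend removed). Rab3d was at 94.4, 82.4 and 78.1 CPM in WT and at 66.2, 62.8 and 61.2 CPM in KO (log2 fold change −0.42, SE 0.087, adjusted p = 0.00124, and −0.32 with the trend removed). Rab8a was at 192, 178 and 167 CPM in WT and at 139, 141 and 134 CPM in KO (log2 fold change −0.37, SE 0.083, adjusted p = 0.00219, and −0.44 with the trend removed). In each of these genes the lowest WT library was above the highest KO library. Dropping library 1 of KO PF took the count of Rab calls from 15 to 9 and ended those of Rab5c, Rab8b, Rab11b, Rab13, Rab18 and Rab19 (adjusted p from 0.0501 to 0.154). Over all genes it took the calls from 2613 higher and 2481 lower of 10822 to 2052 and 1862 of 10922. The call of Rab19 was also lost after dropping library 2 of WT PF or 3 of KO PF, that of Rab13 after dropping library 2 or 3 of WT PF or 3 of KO PF, and that of Rab5c after dropping library 1 or 2 of WT PF or 3 of KO PF. Rab18 lost its call in 6 of the 12 fits, the others being those without library 3 of WT vehicle, 1 or 2 of WT PF, 2 of KO vehicle or 3 of KO PF.

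**Figure D3:**
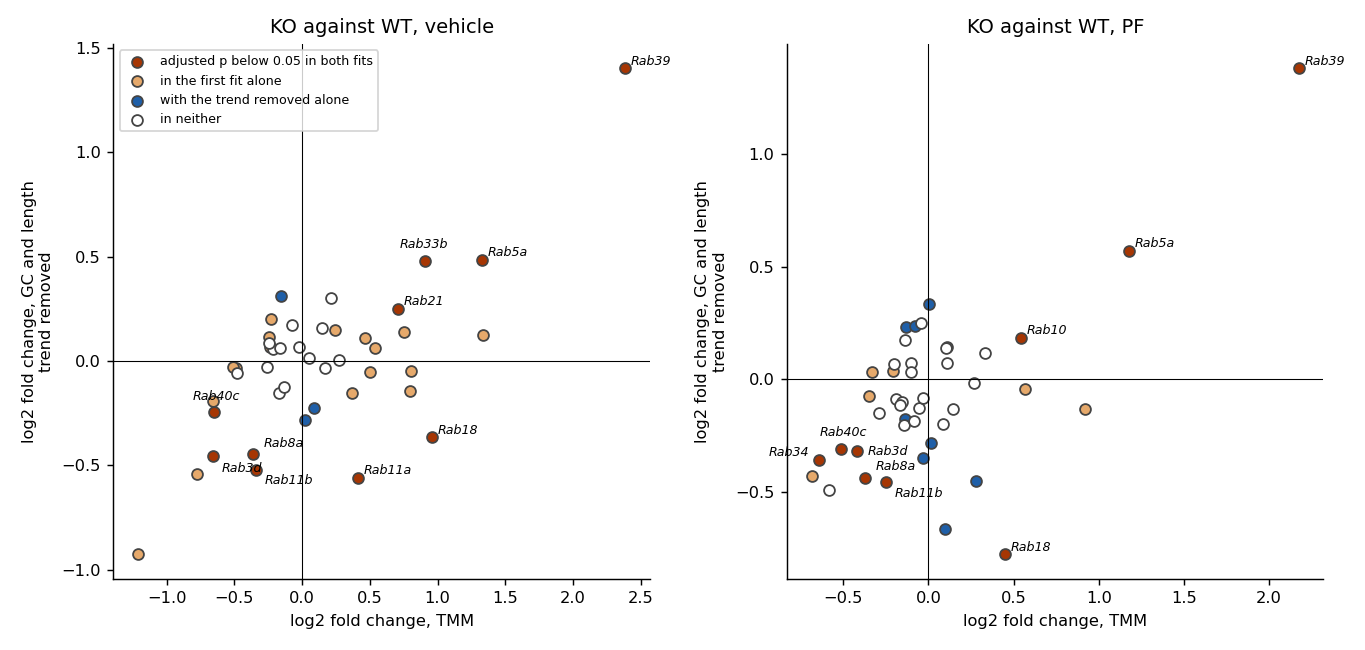
Log2 fold change of the 44 tested Rab genes between genotypes with TMM scaling alone (x) and after removal of the GC and length trend (y), with vehicle (left) and with PF (right). Rab39 and Rab5a lie in the upper right of both plots, Rab3d, Rab8a, Rab11b and Rab40c in the lower left, and Rab18 is higher in one fit and lower in the other.

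**Figure D4:**
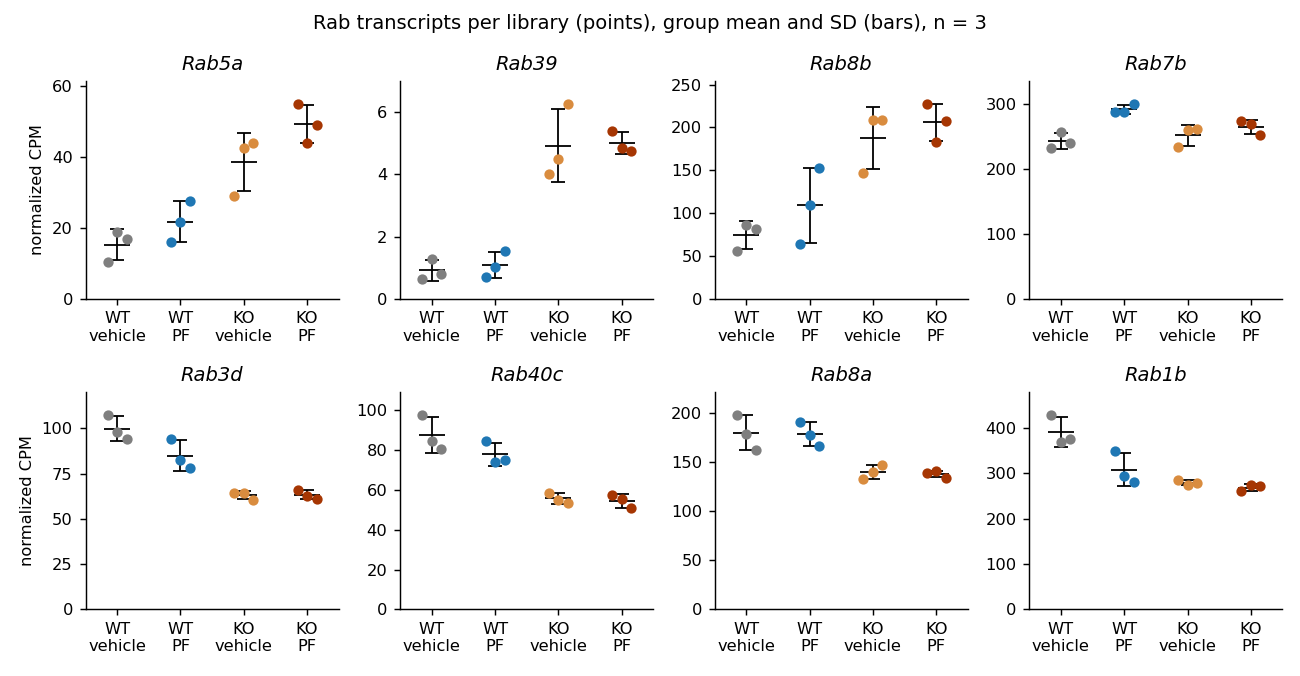
CPM of 8 Rab genes in each library (points) with group mean and SD (bars, n = 3 libraries). Rab5a and Rab39 are higher in every KO library than in any WT library, Rab3d, Rab40c and Rab8a are lower, and Rab7b is highest in WT with PF, at 287 to 299 CPM.

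The second question was what PF did in WT cells. At 6 h, 6 Rab genes were higher and 2 lower with PF than with vehicle, against 6.99% higher and 8.95% lower of all tested genes. The median log2 fold change was 0.043 over Rab genes and 0.0048 over all genes. There were 0 Rab DEGs with edgeR, against 1.52% of all genes, and also 0 with DESeq2 and limma-voom. With edgeR 19 of the 44 Rab genes had an unadjusted p below 0.05, as did 3823 of all 10822 tested genes. The comparison shares its WT vehicle libraries with the comparison of genotypes. With only the 6 WT libraries in the fit, 0 Rab genes passed, against 210 higher and 209 lower of 10472 tested genes. Leaving out 1 library gave from 0 to 16 calls. The count was 0 when library 1 of the WT vehicle group or library 2 or 3 of the WT PF group was dropped, and 3 when library 3 of the WT vehicle group was. It was 5 after dropping library 2 of the KO vehicle group or library 3 of the KO PF group, and 16 after dropping library 1 of the WT PF group. Calls over all genes moved too, from 756 higher and 969 lower of 10822 in the main fit. They were 129 and 217 of 10912 without library 3 of WT PF. Without library 1 of WT PF they were 1622 and 1621 of 10921.

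Rab7b, of transport from late endosomes to the trans-Golgi, was the 1 Rab gene that passed in both fits. It was at 232, 257 and 240 CPM with vehicle and at 287, 287 and 299 CPM with PF in WT. All 3 PF libraries were above all vehicle libraries, and the rise was 1.20-fold (log2 fold change 0.26, SE 0.073, adjusted p = 0.0279, and 0.27 with the trend removed, adjusted p = 0.0101). Dropping library 1 or 3 of its vehicle group, or library 2 or 3 of its PF group, ended the call (adjusted p from 0.0725 to 0.105). In KO it was at 233, 260 and 262 CPM with vehicle and at 273, 269 and 252 CPM with PF, which overlapped. The response in WT minus that in KO was 0.19 in log2 (SE 0.10, adjusted p = 0.423), so it is not shown to differ by genotype. Rab7b lies on chromosome 1 (GRCm38, 131688695 to 131715439), and its transcripts have 49.97% GC, near the median of 49.4% over tested Rab genes.

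Rab1a and its paralog Rab1b moved in opposite directions. Rab1a was at 49.5, 67.8 and 75.2 CPM with vehicle and at 75.6, 105 and 121 CPM with PF in WT (log2 fold change 0.65, SE 0.18, adjusted p = 0.0303). Rab1b was at 429, 370 and 376 CPM with vehicle and at 350, 293 and 282 CPM with PF (log2 fold change −0.34, SE 0.086, adjusted p = 0.0189). Neither pair of groups overlapped, though the highest vehicle value of Rab1a was within 1 CPM of the lowest PF value. With the GC and length trend removed the values were 0.21 and −0.12 and did not pass. Rab2a, of ER to Golgi traffic, was at 45.6, 54.2 and 54.8 CPM with vehicle and at 59.9, 73.7 and 76.6 CPM with PF (log2 fold change 0.44, SE 0.099, adjusted p = 0.0116, and 0.078 with the trend removed). Rab18 and Rab21 (log2 fold change 0.59 and 0.47) had overlapping groups, and Rab12, of the recycling endosome, and Rab43, of the Golgi, did not (0.26 and −0.31). In the second fit these 4 did not pass, at 0.17, 0.24, 0.17 and −0.086. Of the 12 fits that left out a library, Rab1a, Rab1b and Rab2a kept their call in 9, Rab43 in 8, Rab18 in 6, Rab21 in 5 and Rab12 in 2. Library 1 of WT vehicle and libraries 2 and 3 of WT PF ended each of these 7 calls (adjusted p from 0.0531 to 0.194). Across the 44 Rab genes rho between GC content and the PF response in WT was −0.87. The fit without the GC and length trend called 7.15% of all genes and, of the Rab genes, 1 as higher and 0 as lower.

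In KO cells edgeR called 0 Rab genes with PF, and 0 had an unadjusted p below 0.05. DESeq2 and limma-voom called 0 as well, also with 0 at an unadjusted p below 0.05. Over all tested genes 0.0554% were called with edgeR, and 539 of 10822 had an unadjusted p below 0.05. Rab fold changes in KO ran from −0.28 to 0.35 in log2. The largest rise, that of Rab5a, was 0.35 (SE 0.21, adjusted p = 0.982), with overlapping groups.

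The interaction test asks whether the response to PF differed between WT and KO. With edgeR 0 Rab genes passed, against 0.416% of all tested genes. An unadjusted p below 0.05 was found for 7 of the 44 Rab genes and for 1550 of all 10822 tested genes. The 7 were Rab2a, Rab12, Rab33b, Rab1b, Rab43, Rab21 and Rab11a. The smallest p was that of Rab2a, whose response in WT minus that in KO was 0.49 in log2 (SE 0.14, adjusted p = 0.140). It passed with DESeq2 (adjusted p = 0.0454) and when library 1 of the WT PF group was dropped (adjusted p = 0.0224), while limma-voom called 0 and had 6 Rab genes at an unadjusted p below 0.05. That PF called 8 Rab genes in WT and 0 in KO is therefore not a shown difference for the single genes.

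Within some paralog sets the composition of the mRNA pool moved with the groups. Rab1a was 14.2% ± 3.4 (SD, n = 3) of Rab1 counts in WT vehicle libraries, 24.8% ± 6.3 in WT with PF, 28.5% ± 3.2 in KO with vehicle and 31.3% ± 3.0 in KO with PF. Rab8b was 29.2% ± 6.4, 37.0% ± 11.4, 56.9% ± 4.0 and 59.7% ± 2.8 of Rab8 counts in the same order. It was thus below Rab8a in every WT library and above it in every KO library. Rab11a was 22.5% ± 1.2 of Rab11 counts in WT vehicle libraries and 32.8% ± 3.7 in KO vehicle libraries. In these sets, as in Rab5, the member of lower GC content gained. The sets not plotted are given from WT vehicle to KO vehicle libraries. Rab6a went from 61.65% ± 2.04 to 70.43% ± 4.69 and Rab2a from 79.0% ± 1.1 to 81.6% ± 1.5. Rab22a, beside Rab31, went from 15.4% ± 1.1 to 17.8% ± 1.8 and Rab4a from 3.4% ± 0.1 to 4.1% ± 0.3. Each of these had the lower GC content of its set. Rab3a, of higher GC content than Rab3d, went from 4.5% ± 0.5 to 5.1% ± 1.0. Rab7b, whose share of Rab7 counts ran from 36.1% ± 0.2 to 38.3% ± 0.7, showed the smallest spread of the 5 plotted sets. The Wilson 95% intervals of the shares within a library cover counting error only. They were at most 1.9 points to either side in the plotted sets and at most 4.4 in the others. Levels between paralogs also depend on transcript length, which a share of counts does not correct.

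**Figure D5:**
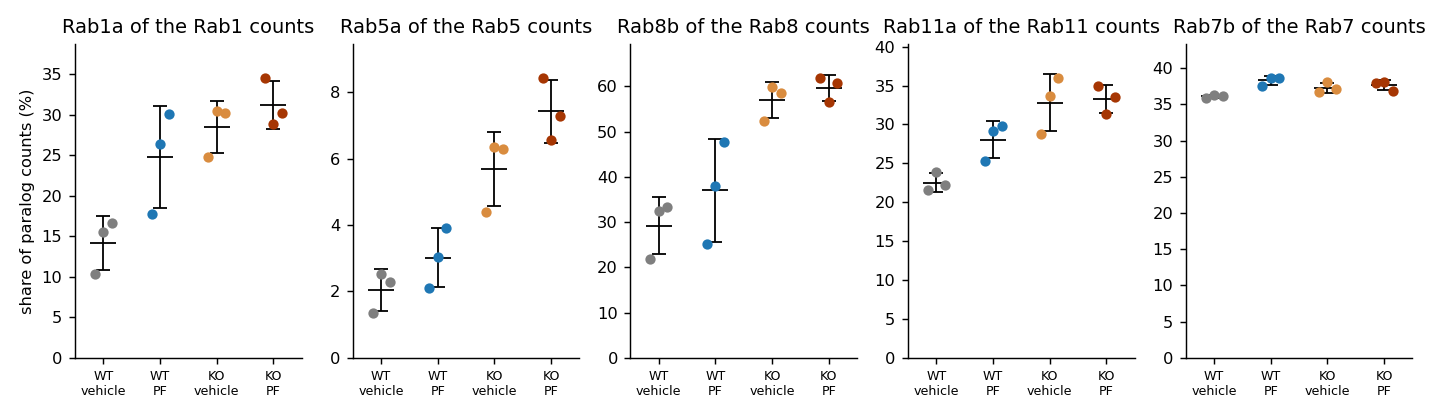
Share (%) of 1 paralog in the counts of its set in each library (points), with group mean and SD (bars, n = 3 libraries). Rab1a, Rab5a, Rab8b and Rab11a take larger shares in KO than in WT vehicle libraries, while Rab7b stays between 35.9% and 38.7% in all libraries.

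The proteins that run the Rab cycle were followed as lists of textbook members. Of the 10 tested subunits of HOPS and CORVET, the tethers that dock vesicles on late and early endosomes, 7 were lower and 1 higher in KO with vehicle, and again 7 and 1 with PF. Over all tested genes 30% were lower and 29.7% higher with vehicle, and 22.9% and 24.1% with PF. All 8 calls held in the same direction with the trend removed in each comparison, where 33.3% and 37.6% of all genes were called. The median log2 fold change was −0.38 with vehicle and −0.34 with PF, and −0.24 and −0.30 with the trend removed. The higher subunit was Vps41 of HOPS, at 31.4, 42.4 and 36.5 CPM in WT and at 63.9, 73.0 and 73.6 CPM in KO with vehicle. It was a DEG (log2 fold change 0.93, SE 0.13, adjusted p = 8.49e-05, and 0.37 with the trend removed).

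Of the 7 tested genes of prenylation and GDP dissociation, 2 were higher and 2 lower in KO with vehicle, near the 29.7% and 30% of all tested genes. Chm, the escort protein that presents new Rabs for prenylation, was at 0.642, 1.75 and 1.29 CPM in WT and at 4.92, 7.04 and 5.83 CPM in KO with vehicle. With PF it was at 1.03, 1.40 and 1.85 CPM in WT and at 14.8, 11.2 and 13.3 CPM in KO. The groups were far apart (log2 fold change 2.25 and 3.18, SE 0.29 and 0.25), and both calls held with the trend removed (0.68 and 1.42). Gdi2, the abundant GDP dissociation inhibitor, was higher in KO with vehicle (log2 fold change 0.68) and lower with the trend removed (−0.44, adjusted p = 0.0018). Tbc1d1 and Tbc1d4, GTPase activating proteins known as AMPK substrates, had log2 fold changes of −0.075 and −0.083 with PF in WT and 0.019 and 0.13 in KO against WT with vehicle, with no call. Lrrk2, a kinase of Rab8 and Rab10, was higher in KO with vehicle (0.82, adjusted p = 0.00717), and with the trend removed its value was 0.054.

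Of 34 tested exchange factors 7 were higher and 11 lower in KO with vehicle, and of 35 GTPase activating proteins 8 and 13, against 29.7% higher and 30% lower of all tested genes. Dennd2a, an exchange factor, was lower in both fits (log2 fold change −1.02 and −0.79), and Evi5 and Tbc1d12, of the GTPase activating family, were higher in both (1.90 and 1.57, then 0.65 and 1.18). Of 34 tested effectors 11 were higher and 12 lower. Mical1, an oxidoreductase of actin that binds Rabs, was at 54.6, 48.7 and 46.4 CPM in WT and at 28.2, 23.1 and 24.6 CPM in KO. It fell in both fits (log2 fold change −0.98, SE 0.10, adjusted p = 1.6e-05, and −0.63 with the trend removed). With PF, Mical1 and Dennd2a were again lower in both fits (−0.97 and −1.06, then −0.82 and −1.02). The motor Myo5a and the Golgi tether Uso1 were higher in both (1.31 and 0.98, then 0.59 and 0.48), whereas Eea1 and Appl1, effectors of Rab5, were higher in the first fit (1.65 and 1.72) and had adjusted p of 0.128 and 0.0762 in the second. With PF, Eea1 and Appl1 were higher in KO in both fits (2.06 and 1.64, then 0.94 and 0.42). Of 9 exocyst genes 6 were higher and 1 lower, and of 14 TRAPP genes 4 and 8, and with the trend removed exocyst had 0 higher and 2 lower and TRAPP 1 and 3, with 33.3% of all genes called.

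Over all lists, 27 of 146 tested genes were DEGs between genotypes with vehicle (18.5%, against 17.8% of all tested genes), and 25 of them were higher in KO. Those not yet named were all higher. They were the exchange factors Dennd1b (log2 fold change 1.49), Dennd4a (1.01), Dennd4c (1.23) and Dennd6a (0.82), the GTPase activating family members Rabgap1l (1.34), Tbc1d15 (0.92) and Tbc1d8b (1.85), and the effectors Ehbp1 (1.16), Gcc2 (1.22), Rab11fip2 (1.26) and Rabep1 (0.92). To these came Exoc5 (1.89) and Exoc6 (0.94) of the exocyst and Trappc2 (1.19), Trappc8 (1.18) and Trappc13 (0.89) of TRAPP. In the second fit Dennd4c (0.46) and Ehbp1 (0.56) kept their call, Dennd6a (−0.27) and Tbc1d15 (−0.29) were lower in KO, and the other 12 did not pass. With PF, Dennd1b, Dennd4a, Dennd4c, Evi5, Exoc5, Gcc2, Myo5a, Rab11fip2, Rabep1, Tbc1d12, Tbc1d8b and Trappc8 were again DEGs and higher, with log2 fold changes from 0.85 to 2.30. Of these 12, 7 kept their call with the trend removed, and Dennd1b (0.038), Dennd4a (0.29), Dennd4c (0.27), Exoc5 (−0.31) and Trappc8 (0.11) did not (adjusted p from 0.0563 to 0.814). All lists together had 18 DEGs with PF (12.3%, against 14.3% of all tested genes). Tbc1d2, which acts on Rab7, was a lower DEG with PF (−0.81, and −0.74 with the trend removed).

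PF in WT gave 3 DEGs among the 146 tested genes of these lists (2.05%, against 1.52% of all tested genes). Exoc5, of the exocyst, was higher with PF by 1.00 in log2 (adjusted p = 0.00496, SE 0.19) and kept its call with the trend removed (0.63, adjusted p = 0.0224). In KO, Exoc5 was also higher with PF in every library, without a call (log2 fold change 0.587, SE 0.148, adjusted p = 0.197, and 0.108 with the trend removed). Its response in WT minus that in KO was 0.415 in log2 (SE 0.242, adjusted p = 0.453), so it is not shown to differ by genotype. Ehbp1, a binder of Rab8 and Rab10, had a log2 fold change of 0.87, and Rin1, an exchange factor of Rab5, one of −0.87. Neither passed with the trend removed (adjusted p = 0.101 and 0.113). PF in KO gave 0 calls in these lists, against 0.0554% of all tested genes. Chm was higher in every PF library than in any vehicle library of KO, without a call (log2 fold change 1.13, SE 0.21, adjusted p = 0.0745). Its value was 0.55 with the trend removed, and it was called in 4 of the 12 fits that left out a library. Gcc2 (0.96) and Eea1 (0.88) were also higher in every library. Their adjusted p were 0.0805 and 0.109, and 0.0117 at the lowest over the alternatives. The interaction test called 1 of the 34 exchange factors and 0 genes of the other lists, against 0.416% of all tested genes. Its response was lower in WT than in KO, and this call held with the trend removed.

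The promoters of the Rab genes were searched for CACGTG, the core letters read by TFEB and TFE3, which control lysosome genes. RefSeq windows of 250 bases before to 50 bases after the start were available for 43 of the 52 Rab genes (55 promoters, GRCm38.p6). The letters, which read the same on both strands, were in 6 of the 55 promoters (10.9%), against 10.3% of 11225 promoters of tested genes and 7.15% of all 32851. The 6 genes were Rab5a, Rab20, Rab21, Rab23, Rab24 and Rab27a. The promoter of Rab5a is printed because this gene's rise in KO held in every fit and it was the one Rab promoter with 2 matches, shown in capitals. It is chr17:53478984-53479283 on the plus strand (GRCm38.p6).
Rab5a promoter: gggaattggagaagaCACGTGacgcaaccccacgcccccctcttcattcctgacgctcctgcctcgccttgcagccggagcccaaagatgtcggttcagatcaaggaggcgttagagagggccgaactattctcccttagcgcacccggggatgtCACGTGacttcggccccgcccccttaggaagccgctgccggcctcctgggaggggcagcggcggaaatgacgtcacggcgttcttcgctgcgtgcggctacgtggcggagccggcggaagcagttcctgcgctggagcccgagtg

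The promoter window of Rab5a had 65.3% GC, while its transcripts had 42.3%. Of the 6 genes with the letters, Rab5a, Rab21 and Rab23 were higher in KO with vehicle, Rab20 was lower, and Rab24 and Rab27a had no call. A match is a description of the letters and not evidence of binding.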

How the data were processed

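RNA of WT and AMPKβ1-/- BMDMs (vehicle or PF, 3 libraries each) was sequenced by the authors as paired reads of 50 bases from a directional library kit, trimmed with Trim Galore and quantified with Salmon. The authors deposited 1 file of estimated counts per gene, whole numbers without normalization; the build, annotation and Salmon version are not given in the sources used here. Columns were assigned to groups by their names, and the library numbers in those names were not read as pairing.

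Counts were tested in R 4.3.3 with edgeR 4.0.16 (robust quasi-likelihood, TMM, filterByExpr), in one fit of 4 group means to 12 libraries, with Benjamini-Hochberg adjustment over 10822 genes. SE were derived from the F statistic. Log2 CPM used a prior count of 2. GC content and length came from GENCODE M21 and were known for 10785 tested genes. An offset for their trend came from a spline (5 df) in each library. Alternatives were other scalings and filters, DESeq2 1.42.0, limma-voom 3.58.1, the libraries of a contrast alone, each library left out and a block for the library number. Scripts were tested on simulated data.

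Rab genes with a call in any contrast were named, with values for DEGs and for the 5 largest rises and falls, and DEGs of the regulator lists were named. A result of this rule is not reported here. Paralog windows, the Rab5a promoter and the 2 transcript lengths for levels were chosen after values were seen. The members and lists were chosen with earlier results of these data known.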

Additional observations from a re-analysis of the deposited data

How the results depend on the processing

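For PF in WT the 8 Rab calls became 1 with the GC and length trend removed, 0 with the WT libraries alone and 0 with the fold threshold of a DEG, and 0 to 16 with 1 library left out. Over all genes the 756 higher and 969 lower calls became 349 and 425 with the trend removed. They became 210 and 209 with the WT libraries alone, and 129 and 217 to 1622 and 1621 with 1 library left out. The 27 calls between genotypes with vehicle became 13 with the trend removed and 7 as DEGs (22 to 28 with 1 library left out), and the 15 calls with PF became 3 as DEGs (9 to 17 with 1 library left out). The interaction had 1 call with DESeq2 and 0 to 1 with 1 library left out, and PF in KO had 0 throughout. DESeq2 gave 10, 24 and 15 calls for PF in WT and for the genotypes with vehicle and with PF, and limma-voom gave 7, 26 and 15. Over all 12960 genes DESeq2 called 1060 higher and 971 lower, 3150 and 2956, and 2559 and 2212 in the same order. Over 10822 genes limma-voom called 638 and 959, 3198 and 3240, and 2661 and 2456.

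With the trend removed, directions reversed between genotypes with vehicle for Rab11a (−0.56), Rab14 (−0.16), Rab18 (−0.36), Rab1a (−0.14), Rab20 (0.20), Rab2a (−0.054), Rab35 (0.068), Rab5c (0.11) and Rab6a (−0.050), and with PF for Rab18 (−0.78), Rab4b (0.032), Rab5c (0.037), Rab6a (−0.045) and Rab8b (−0.13). The removed trend is the construction of that fit, and whether it holds biology as well was not tested. With library size alone in place of TMM, the median log2 fold change of all genes between genotypes was 0.18 with vehicle and 0.15 with PF. In the main fit it was −0.026 and −0.0012. Rab calls with library size alone were 21 higher and 6 lower with vehicle, 8 and 4 with PF, and 8 and 2 for PF in WT. Over all 10822 genes they were 4296 and 1600, 3444 and 1359, and 1045 and 587. With the trend removed the Rab splits were 5 and 8, 6 and 11, and 1 and 0. Those of all genes were then 1505 and 2097, 1764 and 2307, and 349 and 425.

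The count columns carry numbers 1 to 3 in each group, but the labels do not say that a number marks anything shared. Of 18 pairs of libraries with the same number in different groups, 6 had deviations from their group means that correlated above 0.1 (r from −0.18 to 0.32, and from −0.39 to 0.32 between other numbers), and 1 of 12 libraries correlated best with its own number in all other groups. With a replicate block for these numbers, chosen after seeing the data, Rab calls were 10 for PF in WT, 26 and 15 between genotypes with vehicle and with PF, and 0 for PF in KO and the interaction, and Rab20 (adjusted p = 0.0501) was the 1 call not made again. Over all genes the block fit called 889 higher and 1094 lower for PF in WT. Between genotypes it called 3208 and 3238 with vehicle and 2699 and 2486 with PF. Depth limits the low genes, among them Rab36, Rab39, Rab44 and the 8 untested genes: 3 counts, the number that a count of 0 allows, are 0.196 to 0.321 CPM, for counting error only.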
